A study of Mus musculus with 9 samples.

Results

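The genes of glycolysis and the targets of hypoxia-inducible factor 1 (HIF-1) were followed in DC2.4, a mouse dendritic cell line. The set was chosen by name and holds 37 of the 21959 genes of the deposited table. It holds 4 glucose and lactate transporters, 17 glycolytic enzymes, 4 regulatory kinases and 12 other hypoxia genes. Of the 37 members, 34 passed the filter on low counts, and Vegfa, Egln3 and Ankrd37 did not. Total RNA was sequenced in 9 libraries, 3 each of the groups OMVSSDC, ZJDC and PBSDC. The study's design names engineered vesicles given to DC2.4 cells. The names OMVSS and ZJ are not explained in the labels, and neither are the group that received these vesicles, the dose and the duration. PBSDC is read as the vehicle group, since PBS is the usual short form of phosphate-buffered saline. No label ties replicates to separate cultures, and the p-values therefore measure the spread between libraries, which may be technical only.

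Glycolysis splits glucose into pyruvate in the cytosol, and lactate dehydrogenase turns pyruvate into lactate, which leaves the cell through monocarboxylate transporters. HIF-1 is a transcription factor whose alpha subunit is hydroxylated by prolyl hydroxylases and degraded when oxygen is plentiful. When the subunit is stable, it raises transcription of glucose transporters, most glycolytic enzymes and genes for mitophagy, angiogenesis and collagen hydroxylation. Dendritic cells are known to increase glycolysis when Toll-like receptors are engaged.

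HIF-1 binds DNA through a core of the letters ACGTG or GCGTG, and the stretches before the starts of 4 members that changed in opposite directions are shown. They were picked after the values were seen, as a gene that was higher and a gene that was lower in OMVSSDC than in PBSDC, each with and without ACGTG. Each line gives the 250 bases before the RefSeq gene start, on the gene's strand. ACGTG, or CACGT where the letters lie on the other strand, is in capitals, and CACGTG is where both overlap.
Slc2a1: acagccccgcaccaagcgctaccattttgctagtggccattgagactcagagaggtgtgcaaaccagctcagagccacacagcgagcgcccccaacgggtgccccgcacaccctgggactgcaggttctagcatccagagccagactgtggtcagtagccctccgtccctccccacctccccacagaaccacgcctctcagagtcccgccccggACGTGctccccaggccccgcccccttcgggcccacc
Eno2: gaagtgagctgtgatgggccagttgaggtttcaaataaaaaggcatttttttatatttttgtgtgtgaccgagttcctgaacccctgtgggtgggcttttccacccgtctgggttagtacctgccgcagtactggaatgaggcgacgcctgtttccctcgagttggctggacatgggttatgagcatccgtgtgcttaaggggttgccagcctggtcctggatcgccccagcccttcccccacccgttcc
Ldha: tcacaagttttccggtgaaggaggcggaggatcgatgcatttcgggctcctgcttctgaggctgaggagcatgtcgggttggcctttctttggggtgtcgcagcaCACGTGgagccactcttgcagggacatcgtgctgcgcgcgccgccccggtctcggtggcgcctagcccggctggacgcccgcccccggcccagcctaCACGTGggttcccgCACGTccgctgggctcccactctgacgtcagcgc
Pfkl: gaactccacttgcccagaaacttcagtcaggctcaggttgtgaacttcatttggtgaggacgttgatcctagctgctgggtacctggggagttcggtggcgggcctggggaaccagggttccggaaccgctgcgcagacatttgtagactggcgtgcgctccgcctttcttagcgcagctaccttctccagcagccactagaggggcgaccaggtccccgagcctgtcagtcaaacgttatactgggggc
In GRCm38.p6 the Slc2a1 stretch is chr4:119108495-119108744 on the plus strand, and it has 1 stretch in capitals. The Eno2 stretch is chr6:124769674-124769923 on the minus strand and has 0. The Ldha stretch is chr7:46845554-46845803 on the plus strand and has 3; it belongs to the first of 2 RefSeq starts of this gene. The Pfkl stretch is chr10:78009808-78010057 on the minus strand and has 0. The second form of the core, GCGTG on either strand, is not in capitals; it occurs 1 time in the Slc2a1 and Pfkl stretches and 0 times in those of Eno2 and Ldha.

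RefSeq held a promoter window, 250 bases before to 50 bases after the start, for 34 of the 37 members, and for Slc2a3, Bnip3l and Ndrg1 it held none. ACGTG on either strand occurred in 27 of the members' 49 windows, or 55.1%, against 19.6% of all 32851 windows. Counted by gene, 24 of 34 members had it, or 70.6%, against 21.8% of all 27025 genes, including 10 of 17 glycolytic enzymes and 9 of 10 other hypoxia genes. Of the members higher in OMVSSDC than in PBSDC it occurred in 5 of 6 with a window, and of those lower in 9 of 16. With ACGTG or GCGTG counted, the core occurred in 31 of 34 members, or 91.2%, against 46.7% of all genes, and in 5 of the 6 higher and 14 of the 16 lower members. These counts describe letters in a window and are no evidence of binding. The members were chosen by name, in part as HIF-1 targets, so the difference from all genes may follow from that choice.

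Library totals ranged from 12784931 to 18388959 counts. OMVSSDC replicates 1 and 2 stood apart from the other 7 libraries. Their counts differed from each other by a chi-square of 1.88 per degree of freedom, but from OMVSSDC replicate 3 by 61.5 and 64.7, whereas the value between OMVSSDC replicate 3 and each of the 3 ZJDC libraries was 7.63 to 10.7. Among themselves, the ZJDC libraries differed by 2.54 to 8.95 and the PBSDC libraries by 2.8 to 3.92. By this measure OMVSSDC replicate 3 lay nearer to ZJDC than to the other libraries of its own group. The labels were kept as given, and whether a library is mislabelled was not tested. OMVSSDC results are also given without replicates 1 and 2 where a call changes or a called value moves by more than 1.5 times. Of 16 dendritic or myeloid markers, 12 averaged at least 1 CPM (counts scaled to library size), and Flt3, Xcr1, Clec9a and H2-Ab1 did not. In bulk RNA, fewer cells of a type and less RNA per cell cannot be told apart. Levels below are CPM after TMM scaling, and fold changes are on the log2 scale, from edgeR's quasi-likelihood test with Benjamini-Hochberg adjustment over 11568 genes and a threshold of 0.05.

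Against PBSDC, most glycolytic enzymes were lower in both OMVSSDC and ZJDC, while the glucose transporter gene Slc2a1, the isozymes Hk3 and Eno2 and several hypoxia genes were higher. In OMVSSDC, 10 of 17 enzymes fell and 2 rose, and 30.2% of all tested genes fell and 33.4% rose. In ZJDC, 10 enzymes fell and 3 rose, against 27.1% and 27.6% of all tested genes. The median fold change of the enzymes was -0.43 in OMVSSDC and -0.41 in ZJDC, and that of all tested genes was 0.05 and 0.01. The other hypoxia genes went in both directions. Of the 9 tested, 4 rose and 3 fell in OMVSSDC, with a median of 0.07, and 4 rose and 1 fell in ZJDC, with a median of 0.30. The OMVSSDC median was -0.14 without OMVSSDC replicate 3, -0.068 without PBSDC replicate 1 and -0.047 without ZJDC replicate 2. These were taken over the members past each fit's own filter, which can differ from these 9. For these 9 alone, the median without OMVSSDC replicate 3 was 0.12, the value of P4ha2. Over all 34 members, 8 rose and 16 fell in OMVSSDC, where 63.6% of tested genes changed, and 9 rose and 14 fell in ZJDC, where 54.7% did. Of these, 8 rose and 14 fell in both comparisons, and none changed in opposite directions. The share of all tested genes called alike in both was not computed, so whether this is particular to the members was not tested. Over 2-fold, Hk3, Eno2 and Ndrg1 rose in both comparisons, beside 12.9% of tested genes in OMVSSDC and 9.18% in ZJDC. Pfkl, Pkm, Ldha, Bnip3 and Pdk1 fell over 2-fold in OMVSSDC and Pfkl and Ldha in ZJDC, beside 6.87% and 3.89% of tested genes. The 2 comparisons share the PBSDC libraries.

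**Figure D1:**
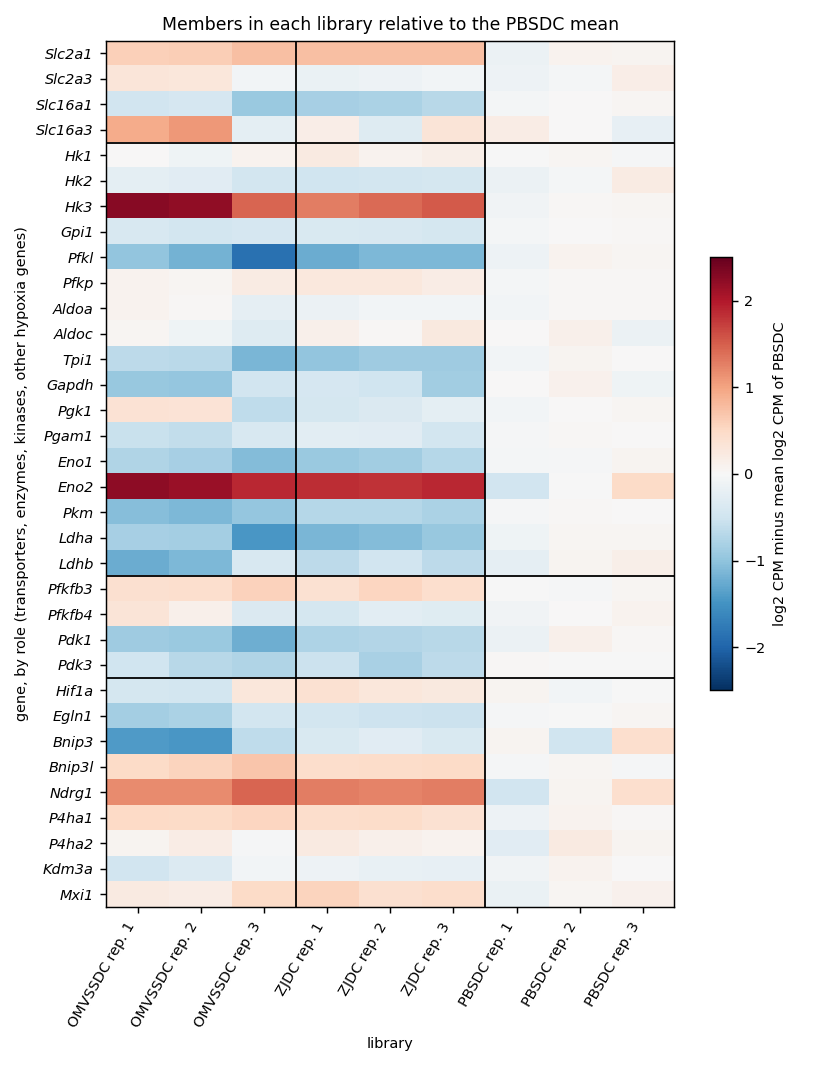
Level of every tested member in each of the 9 libraries, as the log2 difference from the mean of the PBSDC libraries, with members ordered by role. Most enzymes lie below 0 in OMVSSDC and ZJDC, whereas Hk3, Eno2, Slc2a1 and Ndrg1 lie above it, and OMVSSDC replicates 1 and 2 differ from replicate 3 in Pgk1 and Hif1a.

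Among the transporters, Slc2a1 (GLUT1), the main basal glucose importer, had 216, 220.0 and 241 CPM in OMVSSDC, 242, 241 and 241 CPM in ZJDC, and 129, 151 and 150.0 CPM in PBSDC. Both groups lay above every PBSDC library. It rose by 0.65 in OMVSSDC (SE 0.0761, adjusted p = 3.90e-05) and by 0.75 in ZJDC (SE 0.0761, adjusted p = 2.18e-05). Slc16a1 (MCT1), a carrier of lactate and pyruvate, fell by 0.59 and by 0.78, with means of 108 CPM in OMVSSDC, 94.8 CPM in ZJDC and 162 CPM in PBSDC; the fall in OMVSSDC was 0.93 without replicates 1 and 2. Slc2a3 (GLUT3), a high-affinity glucose importer, did not pass, with differences of 0.18 in OMVSSDC and -0.12 in ZJDC. Slc16a3 (MCT4), a lactate exporter, averaged 5.01 ± 2.13 CPM in OMVSSDC, 3.23 ± 0.717 CPM in ZJDC and 3.06 ± 0.426 CPM in PBSDC (SD, n = 3 each) and did not pass. Without OMVSSDC replicate 3, both of these passed in OMVSSDC, at 0.29 and 1.01, and without replicates 1 and 2 they were -0.07 and -0.27.

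Hexokinase, the first enzyme of the pathway, is encoded by 3 members that differed in direction. Hk3, a hexokinase of myeloid cells, had 289, 280.0 and 165 CPM in OMVSSDC, 146, 159 and 174 CPM in ZJDC, and 56.6, 61.2 and 61.6 CPM in PBSDC. Every OMVSSDC and ZJDC library exceeded every PBSDC library, and the rise was 2.03 (SE 0.185, adjusted p = 6.92e-06) in OMVSSDC and 1.41 (SE 0.183, adjusted p = 0.000111) in ZJDC. Hk2, the inducible hexokinase and a HIF-1 target, had 151, 148 and 131 CPM in OMVSSDC, 128, 131 and 133 CPM in ZJDC, and 162, 174 and 206 CPM in PBSDC. It fell by 0.33 in OMVSSDC (SE 0.0936, adjusted p = 0.0106) and by 0.47 in ZJDC (SE 0.0937, adjusted p = 0.00194). With scaling by library size alone the OMVSSDC fall was 0.20 with an adjusted p of 0.11. Hk1, the housekeeping hexokinase, averaged 206 CPM in OMVSSDC, 229 CPM in ZJDC and 206 CPM in PBSDC and did not pass. In ZJDC it passed in 4 other settings, at 0.16 in 3 of them, among them the fits without OMVSSDC replicate 3 and on the ZJDC and PBSDC libraries alone, and at 0.22 with library size alone.

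Per length, the 3 hexokinases summed to 120 ± 23.7 FPKM in OMVSSDC, 92.1 ± 4.63 FPKM in ZJDC and 67.5 ± 4.13 FPKM in PBSDC (SD, n = 3 each). Hk3 made up 57.2% of the hexokinase FPKM in OMVSSDC, 46.95% in ZJDC and 23.0% in PBSDC. Hk2 made up 21.2%, 23.8% and 42.7% in the same groups. These shares depend on the deposited gene lengths, 8532 bases for Hk1 and 3682 for Hk3. The longest coding transcripts had 4278 and 3219 bases, so the lengths lower Hk1 more than Hk3.

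Gpi1, which converts glucose 6-phosphate to fructose 6-phosphate, fell by 0.43 in OMVSSDC and by 0.41 in ZJDC. Pfkl, the liver-type phosphofructokinase, had 46.4, 40.6 and 25.3 CPM in OMVSSDC, 39.1, 42.4 and 42.3 CPM in ZJDC, and 84.6, 97.5 and 95.2 CPM in PBSDC. The groups did not overlap, and it fell by 1.30 in OMVSSDC (SE 0.176, adjusted p = 0.000106) and by 1.16 in ZJDC (SE 0.174, adjusted p = 0.000299). Pfkp, the platelet type, was at 422 CPM in OMVSSDC, 458 CPM in ZJDC and 389 CPM in PBSDC; it rose by 0.24 in ZJDC (SE 0.0638, adjusted p = 0.00956) and was 0.12 and not past the threshold in OMVSSDC. The OMVSSDC value passed without replicates 1 and 2, at 0.21, and with library size alone, at 0.24. With a gene length trend removed, the ZJDC value was 0.11 and did not pass. The 2 summed to 38.7 ± 1.32 FPKM in OMVSSDC, 40.4 ± 0.790 FPKM in ZJDC and 41.0 ± 1.82 FPKM in PBSDC (SD, n = 3 each). Aldoa, the main aldolase, did not pass, at -0.03 in OMVSSDC and -0.10 in ZJDC, and neither did Aldoc, at -0.12 and 0.13; the OMVSSDC signs of both turned with scaling by library size alone. Without OMVSSDC replicates 1 and 2 both passed in OMVSSDC, Aldoa at -0.22 and Aldoc at -0.34, and Aldoa passed in ZJDC in 3 settings, at -0.10 to -0.092. The deposited table has a second line named Aldoa, a different gene identifier at 3.87 CPM in OMVSSDC, 2.0 CPM in ZJDC and 1.10 CPM in PBSDC, which rose by 1.81 in OMVSSDC and by 0.86 in ZJDC and is not counted among the members.

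**Figure D2:**
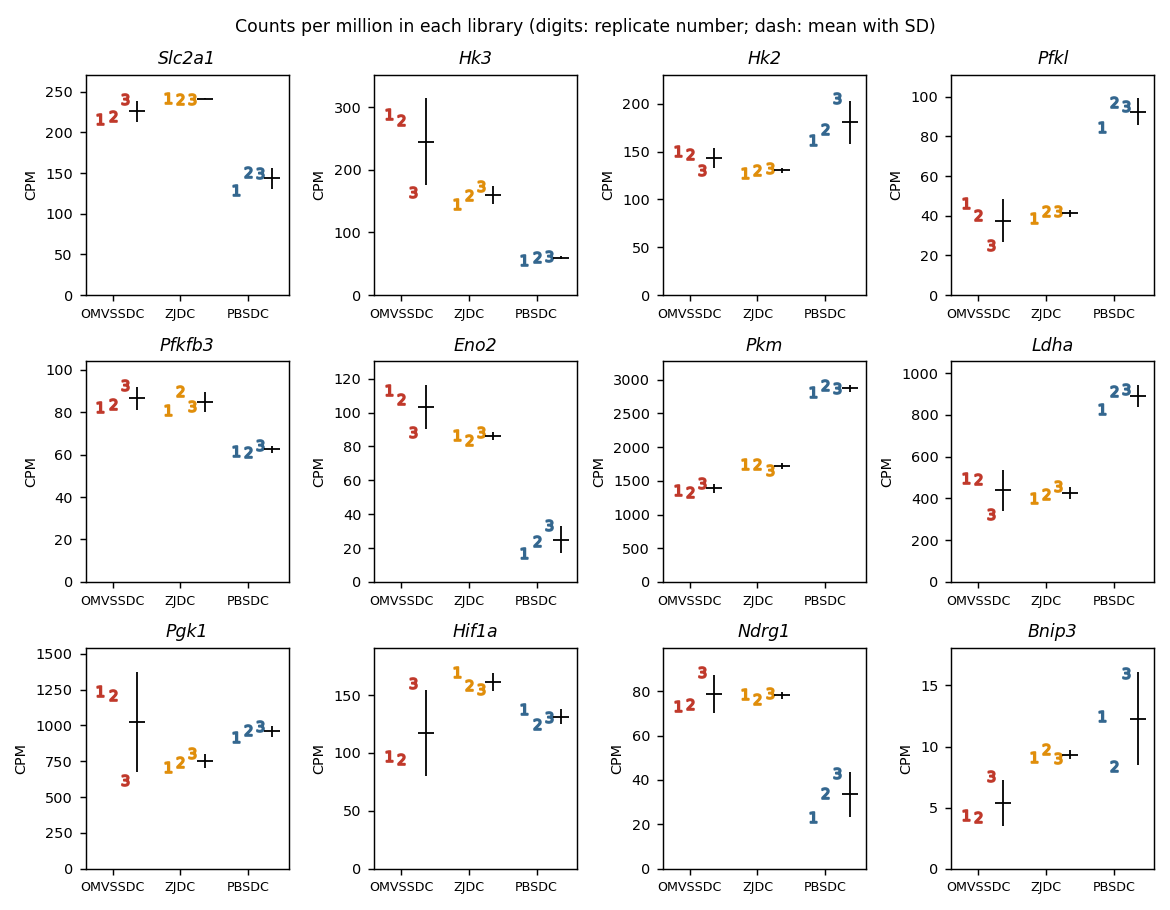
CPM of 12 members in each library (digits are the replicate number, the dash is the group mean with its SD). Slc2a1, Hk3, Eno2, Pfkfb3 and Ndrg1 lie higher in OMVSSDC and ZJDC than in PBSDC, and Hk2, Pfkl, Pkm and Ldha lie lower; Pgk1 and Hif1a differ between OMVSSDC replicate 3 and the other 2.

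Most enzymes of the later steps fell. Tpi1, triose phosphate isomerase, had 391, 388 and 280.0 CPM in OMVSSDC, 309, 331 and 332 CPM in ZJDC, and 584, 642 and 622 CPM in PBSDC. It fell by 0.80 in OMVSSDC (SE 0.115, adjusted p = 0.000165) and by 0.93 in ZJDC (SE 0.116, adjusted p = 8.63e-05). Gapdh, which oxidises glyceraldehyde 3-phosphate, averaged 91.6 ± 18.7 CPM in OMVSSDC, 105 ± 16.8 CPM in ZJDC and 158 ± 11.6 CPM in PBSDC (SD, n = 3 each), and fell by 0.79 and by 0.59. Without OMVSSDC replicates 1 and 2 the OMVSSDC value was -0.49 and did not pass. Its transcript shared stretches of at least 100 bases at 95% identity with 81 other annotated genes, 77 of them pseudogenes, and how reads that match several genes were assigned is not given. Such copies covered 88.0% of the Gapdh transcript, 94.2% of Bnip3, 85.6% of Eno1, 76.8% of Ldhb, 68.8% of Pgk1, 65.5% of Pkm, 55.3% of Gpi1 and 55% of Ldha, and smaller shares of other members, so these values are less certain than those of Hk3, Eno2 and Pfkl, which had none.

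Pgk1, phosphoglycerate kinase, had 1238, 1214 and 621 CPM in OMVSSDC, 710.0, 745 and 806 CPM in ZJDC, and 917, 967 and 994 CPM in PBSDC; this gene was picked for its replicates after its values were seen. OMVSSDC replicates 1 and 2 lay above every PBSDC library and replicate 3 lay below them all. The difference from PBSDC was 0.09 with all libraries, 0.35 without OMVSSDC replicate 3 and -0.63 without replicates 1 and 2, and it passed in the last 2 fits. In ZJDC it was -0.35 and did not pass with all libraries, but passed at -0.35 without OMVSSDC replicate 3, at -0.34 without replicates 1 and 2 and at -0.34 on the ZJDC and PBSDC libraries alone. Pgam1, phosphoglycerate mutase, fell by 0.52 in OMVSSDC and by 0.34 in ZJDC.

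The enolases moved in opposite directions. Eno1, the ubiquitous enolase, had 192, 182 and 153 CPM in OMVSSDC, 171, 176 and 196 CPM in ZJDC, and 311, 319 and 341 CPM in PBSDC. It fell by 0.88 in OMVSSDC (SE 0.0935, adjusted p = 2.01e-05) and by 0.84 in ZJDC (SE 0.0933, adjusted p = 4.12e-05). Eno2, known as the enolase of neurons, had 113, 108 and 88.7 CPM in OMVSSDC, 86.6, 83.8 and 88.6 CPM in ZJDC, and 17.3, 23.9 and 33.4 CPM in PBSDC. It rose by 2.06 in OMVSSDC (SE 0.192, adjusted p = 8.17e-06) and by 1.80 in ZJDC (SE 0.192, adjusted p = 2.94e-05). Among Eno1, Eno2 and Eno3, Eno2 made up 35.2% of the FPKM in OMVSSDC, 32.2% in ZJDC and 7.12% in PBSDC. The 10 heart, muscle or brain markers summed to 4.41 to 18.4 CPM in OMVSSDC, 17 to 22.7 CPM in ZJDC and 32.4 to 35.5 CPM in PBSDC; 6 of 10 averaged at least 1 CPM, the neuronal markers Snap25 and Syt1 did not, and their part in the Eno2 result was not tested.

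Pkm, pyruvate kinase, had 1365, 1328 and 1467 CPM in OMVSSDC, 1754, 1744 and 1666 CPM in ZJDC, and 2824, 2920.0 and 2879 CPM in PBSDC. All OMVSSDC libraries lay below all ZJDC libraries, and these below all PBSDC libraries. It fell by 1.05 in OMVSSDC (SE 0.0575, adjusted p = 2.33e-07) and by 0.74 in ZJDC (SE 0.0572, adjusted p = 3.42e-06). Ldha, the main lactate dehydrogenase subunit of these libraries, had 500.0, 491 and 323 CPM in OMVSSDC, 403, 421 and 459 CPM in ZJDC, and 828, 917 and 924 CPM in PBSDC. It fell by 1.02 in OMVSSDC (SE 0.146, adjusted p = 0.000155) and by 1.06 in ZJDC (SE 0.146, adjusted p = 0.000171). Ldhb, the second subunit, fell by 0.91 in OMVSSDC and by 0.63 in ZJDC at means of 1.88, 2.30 and 3.55 CPM in OMVSSDC, ZJDC and PBSDC, and made up at most 1.13% of the lactate dehydrogenase FPKM as a group mean. Its OMVSSDC value was -0.42 and did not pass without OMVSSDC replicates 1 and 2, and its ZJDC call was lost on leaving out PBSDC replicate 2 (-0.60) or 3 (-0.55) or ZJDC replicate 1 (-0.59), 2 (-0.68) or 3 (-0.60).

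**Figure D3:**
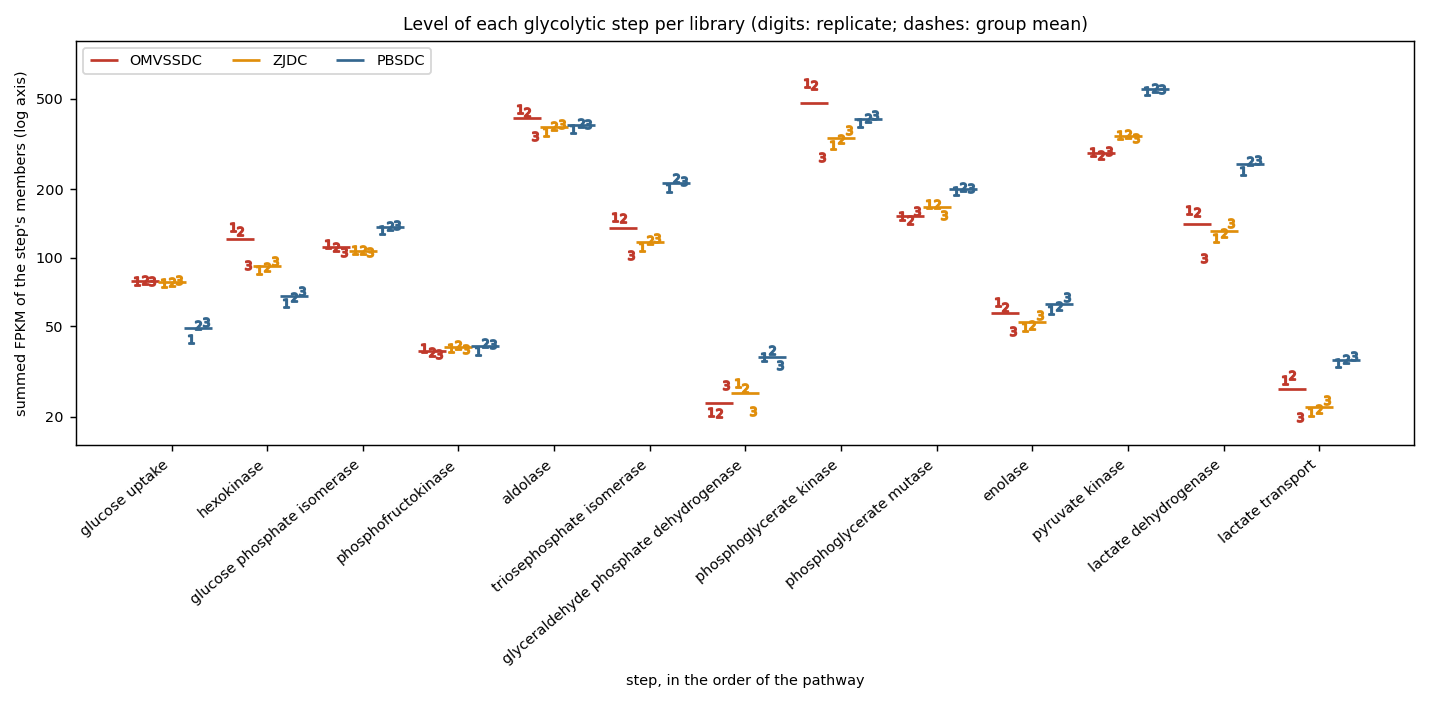
Summed FPKM of the members at each step of the pathway, on a log axis, with each library as a digit and the group mean as a dash. Glucose uptake and hexokinase are higher in OMVSSDC and ZJDC than in PBSDC, and pyruvate kinase and lactate dehydrogenase are lower.

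Summed over the 17 enzymes, FPKM were 1959 ± 319 in OMVSSDC, 1788 ± 45.5 in ZJDC and 2359 ± 81.6 in PBSDC (SD, n = 3 each). FPKM lack the TMM scaling of the CPM, whose factors were 1.005 to 1.067 in OMVSSDC and 0.9544 to 0.9587 in PBSDC. Relative to PBSDC, all FPKM sums given here therefore put OMVSSDC higher than CPM would. The enzymes took 0.607% to 0.767% of all counts in OMVSSDC, 0.661% to 0.683% in ZJDC and 0.854% to 0.904% in PBSDC. Glucose uptake, the sum of Slc2a1 and Slc2a3, stood at 79.1 ± 0.745 FPKM in OMVSSDC, 78.1 ± 1.22 FPKM in ZJDC and 48.8 ± 4.27 FPKM in PBSDC (SD, n = 3 each). Pyruvate kinase stood at 289 ± 5.81, 344 ± 5.91 and 549.5 ± 10.02 FPKM in the same order.

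**Figure D4:**
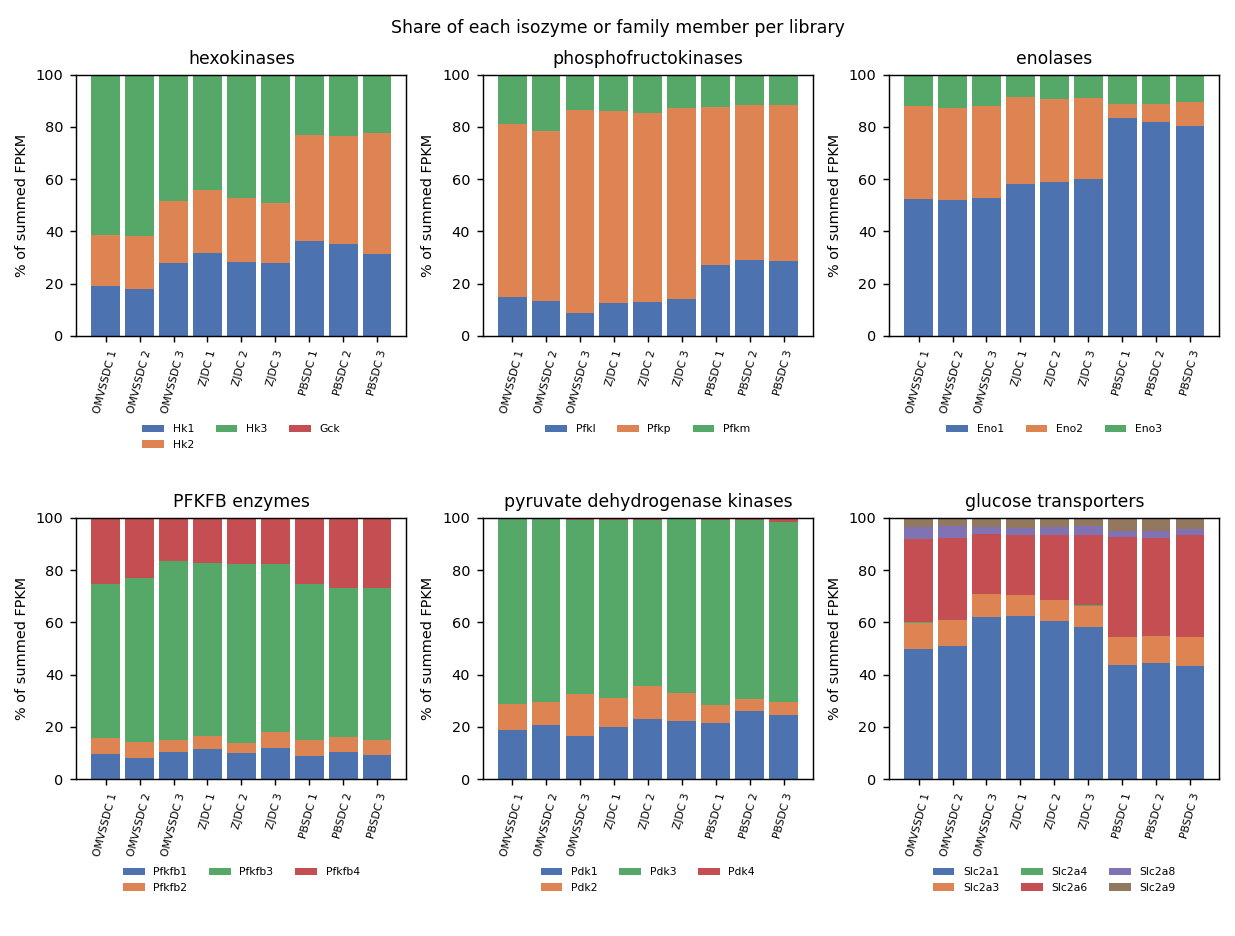
Share of each isozyme in the summed FPKM of its family, one bar per library. Hk3 takes a larger share of the hexokinases, and Eno2 of the enolases, in OMVSSDC and ZJDC than in PBSDC, and Pfkl a smaller share of the phosphofructokinases.

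Of the regulatory kinases, Pfkfb3, which makes the phosphofructokinase activator fructose 2,6-bisphosphate, had 82.6, 84.0 and 92.8 CPM in OMVSSDC, 81.0, 90.1 and 83.1 CPM in ZJDC, and 61.9, 61.1 and 64.3 CPM in PBSDC. It rose by 0.47 in OMVSSDC (SE 0.0709, adjusted p = 0.000227) and by 0.44 in ZJDC (SE 0.0709, adjusted p = 0.000465), with no overlap between groups. Pdk1 and Pdk3, which inactivate pyruvate dehydrogenase, fell by 1.01 and by 0.65 in OMVSSDC and by 0.74 and by 0.66 in ZJDC. Pfkfb4, a relative of Pfkfb3, did not pass, at 0.06 in OMVSSDC and -0.34 in ZJDC; in OMVSSDC it was -0.36 and passed without replicates 1 and 2, and in ZJDC it passed at -0.34 without OMVSSDC replicate 3, at -0.34 without replicates 1 and 2 and at -0.33 on the ZJDC and PBSDC libraries alone.

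Among the other hypoxia genes, Hif1a, the alpha subunit of HIF-1, had 97.3, 94.9 and 160.0 CPM in OMVSSDC, 170.0, 159 and 155 CPM in ZJDC, and 138, 125 and 131 CPM in PBSDC. OMVSSDC replicates 1 and 2 lay below every PBSDC library and replicate 3 above them. It did not pass in either comparison, at -0.16 in OMVSSDC and 0.30 in ZJDC. Without OMVSSDC replicate 3 the difference in OMVSSDC passed, at -0.45. Without replicates 1 and 2, when replicate 3 was the only OMVSSDC library, it had the opposite sign, at 0.28. The direction of Hif1a in OMVSSDC thus turned on which libraries were kept. In ZJDC it passed in the fits without OMVSSDC replicate 3 (0.30), without OMVSSDC replicates 1 and 2 (0.30) and on the ZJDC and PBSDC libraries alone (0.30).

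Ndrg1, a stress gene known as a target of HIF-1, had 73.2, 74.1 and 88.7 CPM in OMVSSDC, 78.6, 76.4 and 79.3 CPM in ZJDC, and 23.2, 34 and 43.2 CPM in PBSDC. The groups did not overlap, and it rose by 1.24 in OMVSSDC (SE 0.180, adjusted p = 0.000178) and by 1.23 in ZJDC (SE 0.180, adjusted p = 0.000253). Bnip3l (NIX), a receptor of mitophagy, rose by 0.58 and by 0.46 in OMVSSDC and ZJDC. P4ha1, a collagen prolyl hydroxylase subunit, rose by 0.50 and by 0.42, and its relative P4ha2 did not pass, at 0.07 and 0.13. Mxi1, a MYC antagonist, rose by 0.30 and by 0.46; in OMVSSDC it did not pass without PBSDC replicate 1 (0.22) or 2 (0.31), and it was 0.47 without OMVSSDC replicates 1 and 2.

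Bnip3, a mitophagy receptor related to Bnip3l, had 4.40, 4.25 and 7.58 CPM in OMVSSDC, 9.14, 9.79 and 9.08 CPM in ZJDC, and 12.5, 8.37 and 16.0 CPM in PBSDC. It fell by 1.19 in OMVSSDC (SE 0.265, adjusted p = 0.00287), where the groups did not overlap, and was -0.40 and not past the threshold in ZJDC (SE 0.251, adjusted p = 0.204). The OMVSSDC value was -0.70 without OMVSSDC replicates 1 and 2, and the ZJDC value passed without OMVSSDC replicate 3, at -0.40. Egln1 (PHD2), the main prolyl hydroxylase of HIF-1 alpha, fell by 0.69 and by 0.51. Kdm3a, a histone demethylase, fell by 0.29 in OMVSSDC, a call that was lost on leaving out OMVSSDC replicate 1 (-0.21) or 2 (-0.26) or PBSDC replicate 2 (-0.26) or 3 (-0.29), and that was -0.074 without OMVSSDC replicates 1 and 2. In ZJDC it was -0.18 and did not pass, but it passed in 4 other settings, at -0.22 to -0.17.

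Vegfa, the angiogenic factor that is a textbook HIF-1 target, had 1, 2 and 3 counts in OMVSSDC, 1, 4 and 0 counts in ZJDC, and 3, 2 and 2 counts in PBSDC. Egln3 had at most 1 count in any library, and Ankrd37 had 3 to 15 counts. A count of 0 in a library allows up to 3 counts, or 0.161 to 0.235 CPM. At such counts, even large differences in Vegfa or Egln3 could go undetected. In the fit with no low count filter, Vegfa differed from PBSDC by -0.25 in OMVSSDC (SE 0.991) and by -0.51 in ZJDC (SE 1.01), and neither passed.

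**Figure D5:**
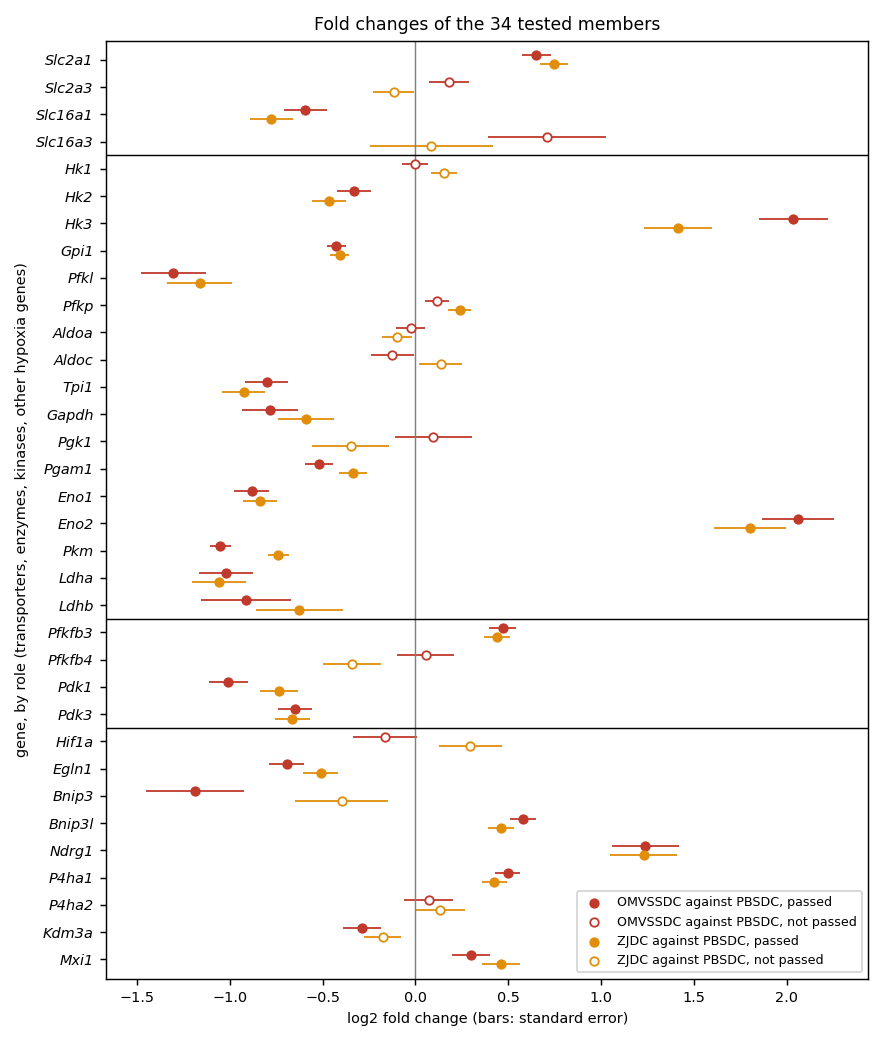
Log2 fold change of each tested member with its standard error, OMVSSDC and ZJDC each against PBSDC, by role. Filled points passed the threshold; the enzymes lie mostly below 0, and the other hypoxia genes lie on both sides of it.

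Genes of the same pathways that are not members gave counts in both directions, to be read beside the 33.4% of tested genes that rose and 30.2% that fell in OMVSSDC and the 27.6% and 27.1% in ZJDC. Of 22 further hypoxia-induced genes tested, 13 rose and 4 fell in OMVSSDC, with a median of 0.44, and 12 rose and 4 fell in ZJDC, with a median of 0.44. Rora, a nuclear receptor, rose by 1.97 and by 1.94, and Ddit4 (REDD1) rose by 1.83 in OMVSSDC and by 1.33 in ZJDC. Tfrc, the transferrin receptor, fell by 1.78 and by 1.76. Of 9 further HIF pathway regulators, 1 rose and 4 fell in OMVSSDC, and 2 rose and 3 fell in ZJDC. Epas1, which encodes HIF-2 alpha, fell by 1.59 and by 1.17, and Cited2, which competes with HIF-1 alpha for its co-activators, by 1.06 and by 0.59. Without OMVSSDC replicates 1 and 2, the OMVSSDC value was 0.99 for Ddit4 and -0.64 for Cited2, and both still passed.

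Of 12 genes of pyruvate entry into mitochondria, 2 rose and 5 fell in OMVSSDC and 1 rose and 3 fell in ZJDC. Pdp1, a phosphatase that reactivates pyruvate dehydrogenase, rose by 0.94 and by 0.87. Pdp2, another such phosphatase, went the other way and was called lower in both, at -0.67 in OMVSSDC and -0.46 in ZJDC. Of 8 pentose phosphate genes, 3 rose and 3 fell in OMVSSDC and 2 rose and 3 fell in ZJDC, with Tkt, transketolase, falling by 0.66 and by 0.43. Of 10 glycogen genes, 3 rose and 3 fell in OMVSSDC and 4 rose and 2 fell in ZJDC, with Gyg, glycogenin, rising by 0.69 and by 0.60. Of 12 further glycolysis isozymes and regulators, 4 rose and none fell in OMVSSDC and 2 rose and 1, the muscle enolase Eno3, fell in ZJDC, by 0.67.

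Between OMVSSDC and ZJDC, of 34 members, Pkm alone passed with all libraries, at -0.31 (SE 0.0570, adjusted p = 0.0358), where 1.95% of all tested genes did, 0.856% higher and 1.1% lower. No member passed with over 2-fold, beside 0.0778% of tested genes higher and 0.0519% lower. The members' differences ran from -0.79 for Bnip3 to 0.62 for Hk3. The Pkm call was lost on leaving out any library except OMVSSDC replicate 3, at -0.34 to -0.28. Without OMVSSDC replicate 3, 10 members passed higher and 10 lower, beside 3243 of all genes higher and 3296 lower. This comparison thus turned on which OMVSSDC libraries were used, for genes at large as well as for members. Of the genes that are not members, Eno3 was higher by 0.60 in OMVSSDC than in ZJDC (adjusted p = 0.0467), and this call too was lost on leaving out any library except OMVSSDC replicate 3, at 0.52 to 0.65, and without OMVSSDC replicates 1 and 2, at 0.34.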

How the data were processed

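Total RNA of the DC2.4 line was sequenced in 9 libraries, grouped by their titles. Per the submitters' processing notes, the tools were fastp 0.22.0, HISAT2 2.1.0 and HTSeq 0.9.1. The build and the gene annotation were not given in the sources used here. Deposited values are the authors' read counts per gene, not normalized, and the authors' FPKM values, which scale the counts by gene length and library total. Counts were used for all tests, and FPKM to compare levels between genes and to sum the genes of a step. The deposited gene lengths behind FPKM can exceed the longest coding transcript, as for Pfkp with 13401 against 4145 bases. The excess differs between genes, so sums and shares across genes depend on these lengths. The main test was run with edgeR 4.0.16 (R 4.3.3). Its filterByExpr (minimum count 10, minimum total 15) left 11568 of 21959 genes, and a robust quasi-likelihood model with TMM scaling and group as the only factor was fitted to all 9 libraries, leaving 6 residual degrees of freedom. Tests were two-sided. CPM are TMM-scaled. FPKM sums and isozyme shares were not tested. Copies were searched among GENCODE transcripts, and promoter windows came from RefSeq on GRCm38.p6. The pipeline was checked on simulated data.

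The members and lists were chosen with earlier results of these data known. Values in every library are given for Slc2a1, Hk2, Pfkfb3, Ldha, Hif1a and Vegfa and for the 4 largest called changes per direction and comparison with PBSDC; of lists that are not members, genes were named among the 3 largest called changes. Alternatives were RLE scaling, library size alone, 2 other filters, DESeq2 1.42.0, limma-voom (limma 3.58.1), the replicate block, removal of a gene length trend, the 2 groups compared alone, each library left out, and OMVSSDC replicates 1 and 2 left out. One gene of those lists is not reported here.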

Additional observations from a re-analysis of the deposited data

Results flagged for a closer look

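Pkm differed between the 2 comparisons with PBSDC: its fall in OMVSSDC (-1.05) exceeded that in ZJDC (-0.74), and the direct contrast of OMVSSDC against ZJDC gave -0.31 (SE 0.0570, adjusted p = 0.0358 by edgeR's quasi-likelihood test). All 3 OMVSSDC libraries lay below all 3 ZJDC libraries. The call was lost in 10 of 19 other settings, at an adjusted p of up to 0.187, with the difference between -0.36 and -0.24 in all 19.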

How the results depend on the processing

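Of 646 values of single members under other settings in OMVSSDC against PBSDC, 604 kept their direction and side of the threshold, as did 612 of 646 in ZJDC against PBSDC and 91 of 114 in OMVSSDC against ZJDC, where 6 members (Pkm, Pgk1, Ldha, Hif1a, Hk3 and Bnip3) were followed. The counts of members called in both comparisons with PBSDC stayed within 1.5 times under every setting. The median of the enzymes in OMVSSDC against PBSDC was -0.46 with RLE scaling and with DESeq2 and -0.30 with library size alone, a setting that moved the median of all genes from 0.05 to 0.18. In ZJDC against PBSDC it was -0.34 with library size alone, -0.43 with the gene length trend removed, and -0.43 to -0.36 with each library left out. The median of the other hypoxia genes in OMVSSDC against PBSDC was 0.20 with library size alone and -0.050 with no filter. It ran from -0.14 to 0.18 with each library left out. In ZJDC against PBSDC that median was 0.21 with no filter and 0.22 without OMVSSDC replicates 1 and 2. With each library left out it was 0.21 to 0.33. These medians were taken over the members past each fit's own filter, so the set of genes can change between settings. For the hypoxia genes tested with all libraries, the ZJDC median without OMVSSDC replicates 1 and 2 was 0.30, the value of Hif1a. With all libraries it was also 0.30. In OMVSSDC against ZJDC the enzyme median ran from -0.11 to 0.043 with each library left out.

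In OMVSSDC against ZJDC, DESeq2 called 1 member higher and 2 lower, and 805 genes higher and 838 lower. The replicate block called 0 members lower and 0 genes in each direction, as did the fit on the 2 groups alone. Without OMVSSDC replicates 1 and 2, 6 members and 214 genes were lower, and with the gene length trend removed 227 genes were lower. With library size alone the split was 115 higher and 91 lower. With each library left out, members called ran from 0 to 10 in each direction, genes higher from 0 to 3243 and genes lower from 0 to 3296, the highest being without OMVSSDC replicate 3. The cause was not tested. Same-numbered libraries correlated at -0.388 to 0.0887 in their deviations from the group means, and not every library correlated best with its own number. In OMVSSDC these deviations mostly follow the split of replicates 1 and 2 from replicate 3. The correlations therefore cannot decide whether a number marks a shared culture or day. With the replicate block, Ldhb in ZJDC had an adjusted p of 0.0537, and no other member changed its call against PBSDC.

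Signs turned for members that had not passed. In OMVSSDC against PBSDC, library size alone gave 0.12 for Hk1, 0.10 for Aldoa and 0.0064 for Aldoc, and the gene length trend removed gave 0.0058 for Hk1 and -0.011 for Pgk1. Without OMVSSDC replicates 1 and 2, Hk1 was 0.089, Pgk1 -0.63, Slc2a3 -0.069, Slc16a3 -0.27, Pfkfb4 -0.36, Hif1a 0.28 and P4ha2 -0.032. With each library left out, Hk1 ran from -0.054 to 0.046, Aldoa from -0.092 to 0.060, Pgk1 from -0.069 to 0.35, Pfkfb4 from -0.095 to 0.22 and P4ha2 from -0.068 to 0.18, and in ZJDC against PBSDC Slc16a3 ran from -0.054 to 0.24 and P4ha2 from -0.0029 to 0.25. In OMVSSDC against ZJDC, Ldha was -0.041 with the gene length trend removed and -0.42 without OMVSSDC replicates 1 and 2, where Pgk1 was -0.29; with each library left out Ldha ran from -0.074 to 0.21. Calls lost against PBSDC in some settings were those of Kdm3a, Mxi1, Hk2, Gapdh and Ldhb in OMVSSDC and of Ldhb and Pfkp in ZJDC. Calls gained in some settings were those of Slc2a3, Slc16a3, Pfkp, Aldoa, Aldoc, Pgk1, Hif1a and Pfkfb4 in OMVSSDC and of Hk1, Aldoa, Pgk1, Pfkfb4, Hif1a, Bnip3 and Kdm3a in ZJDC.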
